A study of Mus musculus with 8 samples.

Results

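The ERK feedback genes of FGF signaling are described here in the kidneys of diabetic mice given recombinant FGF4 or vehicle. They comprise 10 of the 55401 genes in the table: the Sprouty genes *Spry1*, *Spry2* and *Spry4*, the Sprouty-related genes *Spred1* and *Spred2*, the MAP kinase phosphatase genes *Dusp4*, *Dusp5* and *Dusp6*, and the ETS transcription factor genes *Etv4* and *Etv5*. The genes were chosen from earlier results of these same libraries, so their differences between the groups are given as a description without a test. Kidney poly(A) RNA was sequenced from 8 male mice with 1 library per mouse. The 4 rFGF4-treated mice (numbered 1, 2, 3 and 5) were injected into the peritoneal cavity, on alternate days, with rFGF4, a recombinant human FGF4 altered so that it does not drive cell division, and the 4 vehicle-treated mice (numbered 2, 3, 4 and 5) received PBS. Per the paper all 8 mice were diabetic. The labels of the rFGF4 samples give the treatment and no genotype. The labels of the vehicle samples name the db/db model, which lacks a working leptin receptor, whereas the paper's text describes the sequenced animals as STZ-induced, and the files do not settle which it was. The study's methods describe a single regimen of rFGF4 or vehicle over several weeks for its drug-treated mice and do not give the age of the sequenced animals separately. No non-diabetic library was analysed, so no value describes a healthy kidney.

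FGFs bind receptor tyrosine kinases, which act through FRS2 and GRB2 on RAS, RAF, MEK and the ERK kinases. Active ERK induces transcription of its own inhibitors, and this negative feedback is a common transcriptional readout of FGF receptor signaling. Sprouty and Spred proteins restrain the path between receptor and RAF, the DUSP proteins dephosphorylate ERK itself, and ETV4 and ETV5 are ETS transcription factors expressed where FGF receptors are active, for instance in the branching ureteric bud of the developing kidney. The same genes also respond to other ligands of receptor tyrosine kinases.

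Promoter sequence from RefSeq (GRCm38.p6) was found for 7 of the 10 genes, as 8 promoters of 250 bases before the transcription start, *Etv5* having more than one. Shown are the promoters of *Dusp6*, the feedback gene with the highest level, of *Dusp5*, which held the most motif matches, and of *Etv5*, the gene with the least spread among vehicle-treated mice. Each is cut where the GENCODE M21 gene begins and is written 5′ to 3′ on the strand of the gene. Capitals mark matches to the searched motifs on either strand. *Dusp6* is on the plus strand (chr10:99262981-99263230), *Dusp5* on the plus strand (chr19:53528895-53529108) and *Etv5* on the minus strand (chr16:22439720-22439820).
Dusp6: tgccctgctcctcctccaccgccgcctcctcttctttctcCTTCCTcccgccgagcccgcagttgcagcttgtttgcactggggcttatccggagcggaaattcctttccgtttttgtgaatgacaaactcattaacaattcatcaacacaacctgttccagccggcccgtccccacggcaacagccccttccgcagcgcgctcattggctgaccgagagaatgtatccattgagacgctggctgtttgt
Dusp5: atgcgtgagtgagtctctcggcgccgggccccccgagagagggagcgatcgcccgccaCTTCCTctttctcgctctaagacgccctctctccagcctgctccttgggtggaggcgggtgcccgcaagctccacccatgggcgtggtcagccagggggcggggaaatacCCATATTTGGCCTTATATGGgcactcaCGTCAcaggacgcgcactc
Etv5: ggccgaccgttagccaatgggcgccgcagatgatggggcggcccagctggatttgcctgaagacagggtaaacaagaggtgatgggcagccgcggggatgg
The motifs searched on both strands were the ETS core CCGGAA, the PEA3-type ETS site AGGAAG, the CRE TGACGTCA, its core TGACG, the AP-1 site TGANTCA and the CArG box bound by SRF. The PEA3-type site was found in 3 of the 8 promoters, those of *Dusp6*, *Spred2* and *Dusp5*, and in 29.5% of 32817 RefSeq promoters of the same length. Positions are counted back from the RefSeq start, which directly follows the *Dusp6* sequence shown and lies 36 bases beyond the end of that of *Dusp5*. In *Dusp6* the PEA3-type site lay 210 to 205 bases before the start, on the opposite strand. In the *Dusp5* promoter a pair of CArG boxes stood next to each other, from 82 to 73 and from 72 to 63 bases before the start, a motif found in 1.47% of all promoters. The core TGACG was found in 2 of the 8 promoters, at 55 to 51 bases in *Dusp5* and at 51 to 47 bases in *Spred2*, against 17.7% of all promoters, and in neither did it overlap another match. The ETS core was found in 0 of 8 promoters (12.0% of all), the full CRE in 0 (1.55% of all) and the AP-1 site in 0 (6.75% of all). A match describes letters in this window and is not evidence of binding.

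Expression was given as FPKM, which counts fragments relative to the exon length of a gene and the mapped reads of a library. Differences between groups are on the scale log2(FPKM + 1), which understates the change of genes of low expression. The table holds no read counts, so the counting error of a value is unknown, and depth relative to vehicle mouse 2 was 0.905 to 1.12. The 15150 genes with at least 0.5 FPKM in 4 or more libraries were compared with limma. An adjusted p under 0.05 (Benjamini-Hochberg) was found for 0 genes (smallest 0.918), and an unadjusted p under 0.05 for 700. The study's threshold (fold change of 1.5 or more with an unadjusted p under 0.05) was passed by 165 genes that were higher and 66 that were lower in rFGF4-treated mice. Over all tested genes the median log2 fold change was 0.09, and it was -0.01 once each library was divided by a factor that makes its median ratio to the others equal (referred to as scaling), after which the calls at the threshold were 93 higher and 81 lower. Genes that define podocytes (*Synpo*), proximal tubule (*Slc34a1*) and thick ascending limb (*Umod*) were expressed in every library. Adipocyte genes, of interest because the labelled extraction text refers to adipose tissue, summed to at most 0.186 FPKM. Libraries did not fall into the 2 groups as a whole. The genome-wide Spearman correlation of rFGF4 mouse 5 was 0.954 with vehicle mouse 2 and 0.959 with vehicle mouse 4, against 0.862, 0.926 and 0.943 with rFGF4 mice 1, 2 and 3, across genes, which are not independent replicates.

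All 10 feedback genes passed the filter, and all 10 had a higher group mean in rFGF4-treated than in vehicle-treated mice on the log2 scale, although *Spry1* turned to -0.08 after scaling. Their median log2 fold change was 0.83. A difference at least as large was found for 189 of all tested genes (1.25%). At the study's threshold 6 of the 10 were higher in rFGF4-treated mice (*Spry2*, *Spry4*, *Dusp4*, *Dusp5*, *Dusp6* and *Etv5*), where 1.09% of all tested genes were. In *Dusp4* and *Etv5* every rFGF4-treated mouse lay above every vehicle-treated mouse, as in 2.66% of all tested genes. Since these genes were chosen from this contrast, nothing is read from these shares. The differences were carried by 3 mice. In rFGF4 mice 1 and 2 all 10 genes lay above every vehicle-treated mouse and in mouse 3 this held for 7, whereas in mouse 5 it held for 2, and 8 of its values were within the vehicle range. In bulk tissue, a gene's level per cell and the share of cells that express it cannot be told apart.

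**Figure D1:**
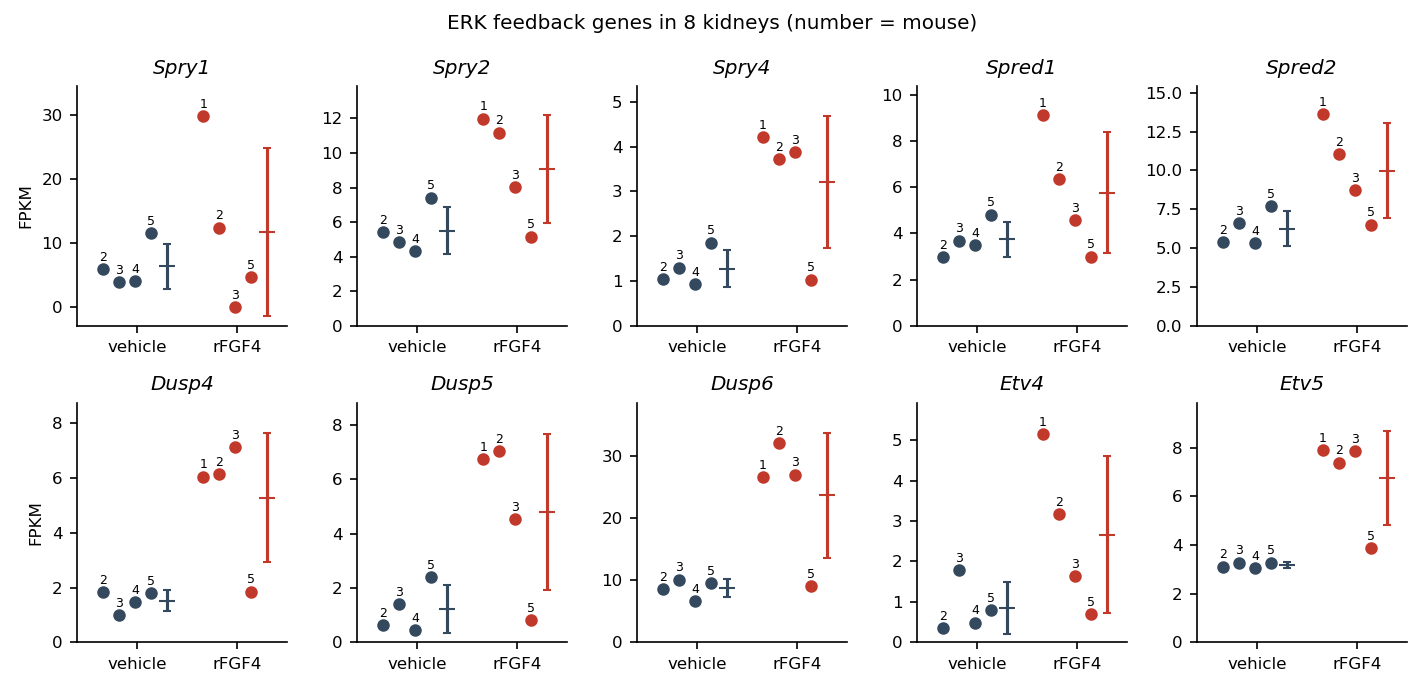
FPKM of the 10 ERK feedback genes (vertical axis, linear, a separate range for each gene) in 4 vehicle-treated (dark) and 4 rFGF4-treated (red) mice. Each point is 1 mouse with its number, and the bars give the mean and SD. For *Dusp4*, *Dusp6* and *Etv5*, rFGF4 mice 1, 2 and 3 lie far above all vehicle-treated mice, and rFGF4 mouse 5 lies beside them.

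Sprouty proteins are membrane-anchored inhibitors that are induced by growth factors and block signaling upstream of ERK. *Spry4* (ENSMUSG00000024427) was measured at 4.21, 3.72, 3.88 and 1.03 FPKM in rFGF4 mice 1, 2, 3 and 5 and at 1.04, 1.297, 0.926 and 1.86 FPKM in vehicle mice 2, 3, 4 and 5. rFGF4 mice 1 to 3 lay close together and above all vehicle-treated mice, and mouse 5 lay among the vehicle-treated. The means were 3.21 ± 1.47 and 1.28 ± 0.417 FPKM (SD, n = 4 each), and the log2 fold change was 0.81 (standard error 0.31). *Spry2* (ENSMUSG00000022114, chromosome 14) was expressed at a higher level, with 12.0, 11.2, 8.03 and 5.16 FPKM in the rFGF4 group, against 5.43, 4.85, 4.33 and 7.41 FPKM in the vehicle group. Here rFGF4 mouse 3 was only 1.08 times the highest vehicle-treated mouse, number 5. The *Spry2* means were 9.09 ± 3.13 and 5.50 ± 1.35 FPKM (SD, n = 4 each), a log2 fold change of 0.60 (standard error 0.26).

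*Spry1*, the Sprouty gene needed in the kidney to limit branching of the ureteric bud, did not follow the others. *Spry1* (ENSMUSG00000037211, chromosome 3) was measured at 29.9, 12.5, 0.0801 and 4.68 FPKM in rFGF4 mice 1, 2, 3 and 5 and at 5.95, 3.97, 4.12 and 11.6 FPKM in the vehicle-treated mice. The highest and the lowest value of all 8 libraries were both in the rFGF4 group. In rFGF4 mouse 3, in which *Spry2* and *Spry4* lay above every vehicle-treated mouse, *Spry1* was nearly absent from the table. Its log2 fold change was 0.05 (standard error 0.92), and without rFGF4 mouse 1 it was -0.66, so no direction can be given. The exons of *Spry1* overlap those of *Gm42922* on the other strand, which had at most 0.353 FPKM in any library, and the strandedness of the libraries was not stated.

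The Spred proteins carry the Sprouty domain and bind neurofibromin, a negative regulator of RAS. *Spred2* (ENSMUSG00000045671, chromosome 11) was measured at 13.6, 11.0, 8.74 and 6.51 FPKM in the rFGF4 group and at 5.37, 6.61, 5.33 and 7.68 FPKM in the vehicle group. *Spred1* (ENSMUSG00000027351, chromosome 2) was measured at 9.12, 6.35, 4.57 and 2.99 FPKM in the rFGF4 group and at 2.97, 3.68, 3.48 and 4.81 FPKM in the vehicle group. In both genes rFGF4 mice 1, 2 and 3 were spread out, whereas in *Spry4* they lay close together, and the groups overlapped. The log2 fold changes were 0.57 for *Spred2* (standard error 0.22) and 0.44 for *Spred1* (standard error 0.28). Neither passed the study's threshold, but *Spred2* missed it narrowly: its ratio of means was 1.597, and with a pseudocount of 0.1 FPKM its log2 fold change was 0.63 and 7 of the 10 genes, *Spred2* among them, passed. That pseudocount also raised the number of higher calls over all 15150 tested genes from 165 to 249.

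On the log2(FPKM + 1) scale the 3 phosphatase genes had the largest differences of the 10, although by the ratio of mean FPKM *Etv4* (3.12) came before *Dusp6* (2.71). *Dusp6*, which encodes a cytoplasmic phosphatase specific for ERK, lies on chromosome 10 of GRCm38 from 99263231 to 99267489 (ENSMUSG00000019960). It was measured at 26.6, 32.1, 27.0 and 9.04 FPKM in rFGF4 mice 1, 2, 3 and 5 and at 8.61, 10.1, 6.70 and 9.58 FPKM in vehicle mice 2, 3, 4 and 5. The lowest of rFGF4 mice 1 to 3 was 2.63 times the highest vehicle-treated mouse, and mouse 5 was within the vehicle range. The means were 23.7 ± 10.1 and 8.76 ± 1.51 FPKM (SD, n = 4 each), with a log2 fold change of 1.22 (standard error 0.36).

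*Dusp4*, which encodes a nuclear phosphatase, lies on chromosome 8 from 34807297 to 34819894 (ENSMUSG00000031530). It was measured at 6.06, 6.14, 7.12 and 1.85 FPKM in the rFGF4 group and at 1.83, 0.999, 1.47 and 1.80 FPKM in the vehicle group. The groups did not overlap, but rFGF4 mouse 5 exceeded vehicle mouse 2 by a margin far smaller than the spread of either group, while the lowest of rFGF4 mice 1 to 3 was 3.31 times the highest vehicle-treated mouse. The log2 fold change was 1.22 (standard error 0.33). *Dusp5* encodes another nuclear phosphatase that acts on ERK and lies on chromosome 19 from 53529109 to 53542431 (ENSMUSG00000034765). It was measured at 6.76, 7.04, 4.54 and 0.821 FPKM in the rFGF4 group and at 0.647, 1.41, 0.440 and 2.41 FPKM in the vehicle group, a log2 fold change of 1.25 (standard error 0.50). Its ratio of means, 3.90, was the largest of the 10, and vehicle mice 3 and 5 lay above rFGF4 mouse 5. Its exons overlap *AC137853.2* on the other strand, which had at most 0.333 FPKM.

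Among the transcription factor genes, *Etv5* was the more uniform. *Etv5* (ENSMUSG00000013089; chromosome 16, 22381309 to 22439719) was measured at 7.90, 7.39, 7.85 and 3.88 FPKM in the rFGF4 group and at 3.11, 3.27, 3.05 and 3.28 FPKM in the vehicle group. The vehicle-treated mice had a coefficient of variation of 3.60%, and all 4 rFGF4-treated mice lay above them, mouse 5 by the smallest margin. The means were 6.75 ± 1.93 and 3.18 ± 0.115 FPKM (SD, n = 4 each), with a log2 fold change of 0.85 (standard error 0.20), the smallest standard error of the 10. *Etv4* (ENSMUSG00000017724, chromosome 11) was the least expressed feedback gene, at 5.14, 3.17, 1.64 and 0.692 FPKM in the rFGF4 group, against 0.345, 1.79, 0.487 and 0.795 FPKM in the vehicle group. Vehicle mouse 3 lay above rFGF4 mouse 3, and the groups overlapped. Its ratio of means was 3.12 and its log2 fold change 0.88 (standard error 0.41), short of the study's threshold.

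**Figure D2:**
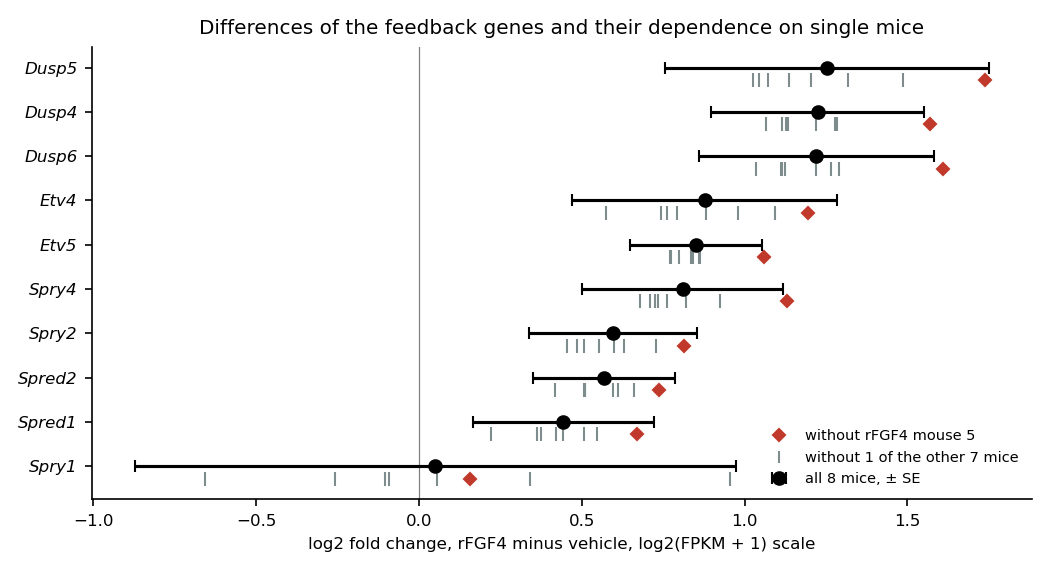
Log2 fold change (rFGF4 minus vehicle, horizontal axis, log2(FPKM + 1) scale) of each ERK feedback gene. Black circles and bars give all 8 mice ± standard error, red diamonds the fit without rFGF4 mouse 5, and grey ticks the fits that leave out 1 of the other mice. The 3 *Dusp* genes lie furthest to the right, and the estimates of *Spry1* range from -0.66 to 0.96.

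Single mice moved the size of these differences more than their direction. Without rFGF4 mouse 5, the median log2 fold change of the 10 genes was 1.09 (0.13 over all tested genes), with 1.61 for *Dusp6* (standard error 0.16), 1.57 for *Dusp4* (standard error 0.17) and 1.06 for *Etv5* (standard error 0.11). In that fit 9 of the 10 were higher at the study's threshold, against 2.76% of 14945 genes, and 7 had groups that did not overlap, against 8.79%. An adjusted p under 0.05 was again found for 0 genes (smallest 0.0872, limma with Benjamini-Hochberg adjustment). The number past the threshold was 3 of the 10 without rFGF4 mouse 1 (1.02% of all tested genes), rFGF4 mouse 2 (0.836%), vehicle mouse 2 (1.02%) or vehicle mouse 4 (1.03%). Apart from *Spry1*, every gene kept a log2 fold change above 0 with each mouse left out. After scaling, the median of the 10 was 0.73, 5 passed the threshold (0.614% of all tested genes were higher there), and *Etv5* was the only one whose groups did not overlap (1.72% of all).

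The feedback genes varied together from mouse to mouse. After the group mean was subtracted from each value, the 45 pairs of feedback genes had a median Pearson r of 0.78 over the 8 mice (0.04 to 0.98), and 86.7% were above 0.5. Over all pairs of 13199 expressed genes the median was 0.23, and 34.1% were above 0.5. Without the pairs that include *Spry1* the median was 0.86 (36 pairs). These values share libraries and depth and are given without a test. The summed FPKM of the 10 genes was 121.3, 100.6, 73.5 and 36.6 in rFGF4 mice 1, 2, 3 and 5 and 35.3, 38.0, 30.3 and 51.2 in vehicle mice 2, 3, 4 and 5. Vehicle mouse 5 was thus the highest vehicle-treated mouse, and it held the highest vehicle value for 7 of the 10 genes.

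Measures of tissue composition moved along the same series of mice. Mitochondrial transcripts made up 19.0%, 24.7%, 29.8% and 36.0% of the summed FPKM in rFGF4 mice 1, 2, 3 and 5 and 38.4%, 34.2%, 37.2% and 24.4% in vehicle mice 2, 3, 4 and 5. The summed FPKM of 5 macrophage genes (*Cd68*, *Csf1r*, *Adgre1*, *C1qa* and *C1qb*) was 427, 183, 59.6 and 34.6 in the rFGF4 group, against 25.5, 101, 25.7 and 459 in the vehicle group. That of 6 proximal tubule genes was 247, 776, 1109 and 1082 in the rFGF4 group, against 1030, 728, 1237 and 708 in the vehicle group. rFGF4 mouse 1, with the highest feedback genes, thus had few proximal tubule transcripts and many macrophage transcripts. Of the 2 mice richest in macrophage transcripts, vehicle mouse 5 had 9.58 FPKM of *Dusp6*, 1.80 of *Dusp4* and 3.28 of *Etv5*, and rFGF4 mouse 1 had 26.6, 6.06 and 7.90. All 10 genes were higher in rFGF4 mouse 1 than in vehicle mouse 5, and 7 of the 10 were higher in vehicle mouse 5 than in every other vehicle-treated mouse. In rFGF4 mouse 3 the same 3 genes were at 27.0, 7.12 and 7.85 FPKM. *Spry4*, *Dusp5*, *Spred2* and *Spry2* were there 2.09, 1.88, 1.14 and 1.08 times the highest vehicle-treated mouse, while *Spred1*, *Etv4* and *Spry1* were below it. The macrophage and mitochondrial values of rFGF4 mouse 3 were within the vehicle range, the latter only through vehicle mouse 5. Its red blood cell (436.5 FPKM), endothelium (24.6) and collecting duct principal cell genes (144) summed to less than in any vehicle-treated mouse. Its thick ascending limb (1329) and liver genes (357) summed to more, and its other marker sums were within the range. The part of tissue composition in the differences was not tested for any of the 10 genes. B and plasma cell genes summed to 81.1 to 2816 FPKM in the rFGF4 group, against 27.5 to 23880 in the vehicle group, where vehicle mouse 5 was highest. T cell genes summed to 0.949 to 14.2 and 0.609 to 33.3 FPKM, stroma and smooth muscle genes to 35.6 to 95.9 and 25.1 to 146, podocyte genes to 66.6 to 97.7 and 47.4 to 87.2, and red blood cell genes to 120 to 2657 and 1139 to 4325. All 6 podocyte genes had a log2 fold change above 0 (median 0.28), and *Synpo* (0.87) was higher at the study's threshold. All 5 red blood cell genes were lower, with a median of -1.97, and 0 passed the threshold. The 4 liver genes summed to 268 to 524 and 173 to 286 FPKM, most of it from *Serpina1a*, and had a median log2 fold change of 0.89. *Apoa1* (log2 fold change 1.18, groups apart) and *Serpina1a* (0.60) were higher at the study's threshold, *Ttr* (1.93) and *Alb* (0.17) were not past it.

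**Figure D3:**
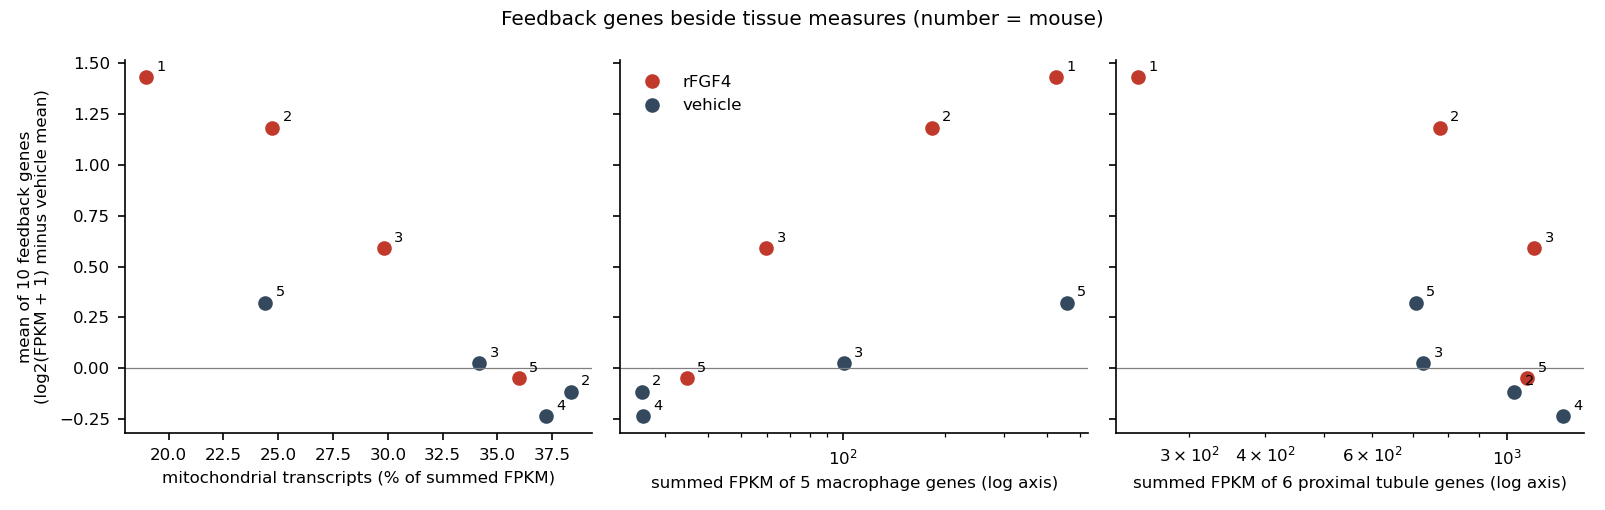
Mean difference of the 10 ERK feedback genes from the vehicle mean (vertical axis, log2(FPKM + 1)) against the share of mitochondrial transcripts and the summed FPKM of macrophage and of proximal tubule genes (horizontal axes, the latter pair logarithmic). Each point is 1 mouse with its number, red for rFGF4 and dark for vehicle. rFGF4 mouse 5 lies among the vehicle-treated mice in all 3 panels, and vehicle mouse 5 lies below rFGF4 mouse 2 at a similar mitochondrial share and below rFGF4 mouse 1 at a similar macrophage sum.

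Related genes of the pathway were read from fixed lists, and no list was tested against the feedback genes. Of a list of 7 further feedback genes, 6 were tested (*Spry3* was not found), all 6 had a log2 fold change above 0 with a median of 0.39 (0.30 after scaling), and 0 passed the study's threshold. The most expressed were *Dusp7*, which encodes an ERK phosphatase, with 8.47, 6.63, 6.61 and 4.13 FPKM in the rFGF4 group, against 3.96, 3.90, 3.75 and 6.52 in the vehicle group, and *Phlda1*, with 8.81, 9.68, 4.82 and 2.96 against 2.44, 3.15, 1.86 and 6.04. In *Dusp7*, too, rFGF4 mice 1 to 3 lay above every vehicle-treated mouse, though mouse 3 only narrowly above vehicle mouse 5. Of 6 further MAP kinase phosphatase genes 5 were higher and 1 lower, with a median of 0.22 (0.15 after scaling). *Dusp1*, an immediate early gene whose product acts on ERK, p38 and JNK, was the one past the threshold. *Dusp1* was measured at 13.3, 35.4, 37.2 and 11.6 FPKM in rFGF4 mice 1, 2, 3 and 5 and at 9.99, 11.3, 7.54 and 9.83 FPKM in the vehicle group, a log2 fold change of 1.08 (standard error 0.39). The groups did not overlap, by the narrow margin of rFGF4 mouse 5 over vehicle mouse 3, and rFGF4 mouse 1, the highest mouse for 7 of the 10 feedback genes, was low among the rFGF4-treated here. After scaling the groups of *Dusp1* overlapped, with rFGF4 mouse 1 below vehicle mouse 3. The other abundant phosphatase of the list, *Dusp14*, had a log2 fold change of -0.26 (standard error 0.28).

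The receptors and the cascade down to ERK differed in both directions. Of the FGF receptors and co-receptors 6 of 7 were tested (*Klb*, the co-receptor of endocrine FGFs in liver and fat, was at most 0.0587 FPKM), 4 were higher and 2 lower, and 0 passed the threshold (median log2 fold change 0.06, and -0.04 after scaling). *Fgfr2* was lower in every rFGF4-treated mouse, at 1.21, 1.24, 0.968 and 1.25 FPKM against 1.81, 1.63, 1.27 and 1.47 FPKM, a log2 fold change of -0.23 (standard error 0.12). *Fgfr1*, the receptor on which the study's podocyte experiments rest and named here after its values were seen, was measured at 9.33, 6.95, 5.69 and 4.601 FPKM in the rFGF4 group, against 4.27, 4.37, 4.15 and 5.67 FPKM (log2 fold change 0.42, standard error 0.20), with rFGF4 mice 1 to 3 above all vehicle-treated mice and mouse 3 only narrowly so. *Fgfr4*, a receptor of the tubule, had 13.1 ± 2.06 and 12.9 ± 0.910 FPKM (SD, n = 4 each). *Kl*, which encodes the FGF23 co-receptor Klotho of the distal tubule, was measured at 8.90, 33.1, 40.8 and 54.4 FPKM in the rFGF4 group, against 52.2, 38.6, 55.6 and 30.8 in the vehicle group, a log2 fold change of -0.57 (standard error 0.50), and the mouse highest in feedback genes was the lowest in *Kl*. Of 18 adaptor, RAS, RAF, MEK and ERK genes, 15 were higher and 3 lower, with a median of 0.13 (0.02 after scaling), and 0 passed the threshold. The adaptor gene *Gab1* was higher in every rFGF4-treated mouse, as were 2.66% of all tested genes, at 6.48, 6.47, 6.22 and 6.09 against 5.11, 3.42, 6.01 and 5.61. The margin over vehicle mouse 4 was narrow, and after scaling the groups of *Gab1* overlapped. The most expressed of this list, *Mapk3*, an ERK gene, had 39.4 ± 9.76 and 36.4 ± 8.42 FPKM (SD, n = 4 each), and the adaptor gene *Grb2* 19.2 ± 5.62 and 17.7 ± 5.13. Phosphorylated ERK itself is not measured by these data.

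Other genes that ERK induces varied widely between mice. Of 17 immediate early and ERK output genes 14 were tested, 13 were higher and 1 lower, with a median of 0.71 (0.61 after scaling, 1.12 without rFGF4 mouse 5), and 0 passed the threshold. *Egr1*, the zinc finger gene driven by ERK through SRF and ELK1, was measured at 16.1, 26.3, 24.8 and 1.36 FPKM in the rFGF4 group, against 2.04, 1.86, 0.865 and 9.37 in the vehicle group. *Fos* was measured at 4.99, 13.4, 13.9 and 0.857 against 0.892, 2.43, 0.966 and 5.57 FPKM. Both were picked after their values were seen, and in both vehicle mouse 5 was the highest of its group and rFGF4 mouse 5 lay beside the lower vehicle-treated mice. The most abundant genes of the list showed this in part (*Ier3*) or not at all (*Ccnd1*, which encodes cyclin D1). In *Ier3*, rFGF4 mouse 5 (28.3 FPKM) lay beside vehicle mouse 4 (28.5), but vehicle mouse 3 was the highest of its group (82.9). The means were 49.6 ± 14.5 and 45.9 ± 29.6 FPKM for *Ier3* and 49.1 ± 25.9 and 61.2 ± 20.9 FPKM for *Ccnd1* (SD, n = 4 each). Of 11 other ETS factor genes 10 were higher and 1 lower, with a median of 0.16 (0.06 after scaling) and 0 past the threshold, against 0.85 for *Etv5* and 0.88 for *Etv4*. The most expressed were *Elf3*, at 23.3 ± 18.5 and 15.9 ± 8.28 FPKM, and *Elk4*, at 7.62 ± 2.91 and 6.67 ± 1.76 FPKM (SD, n = 4 each).

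**Figure D4:**
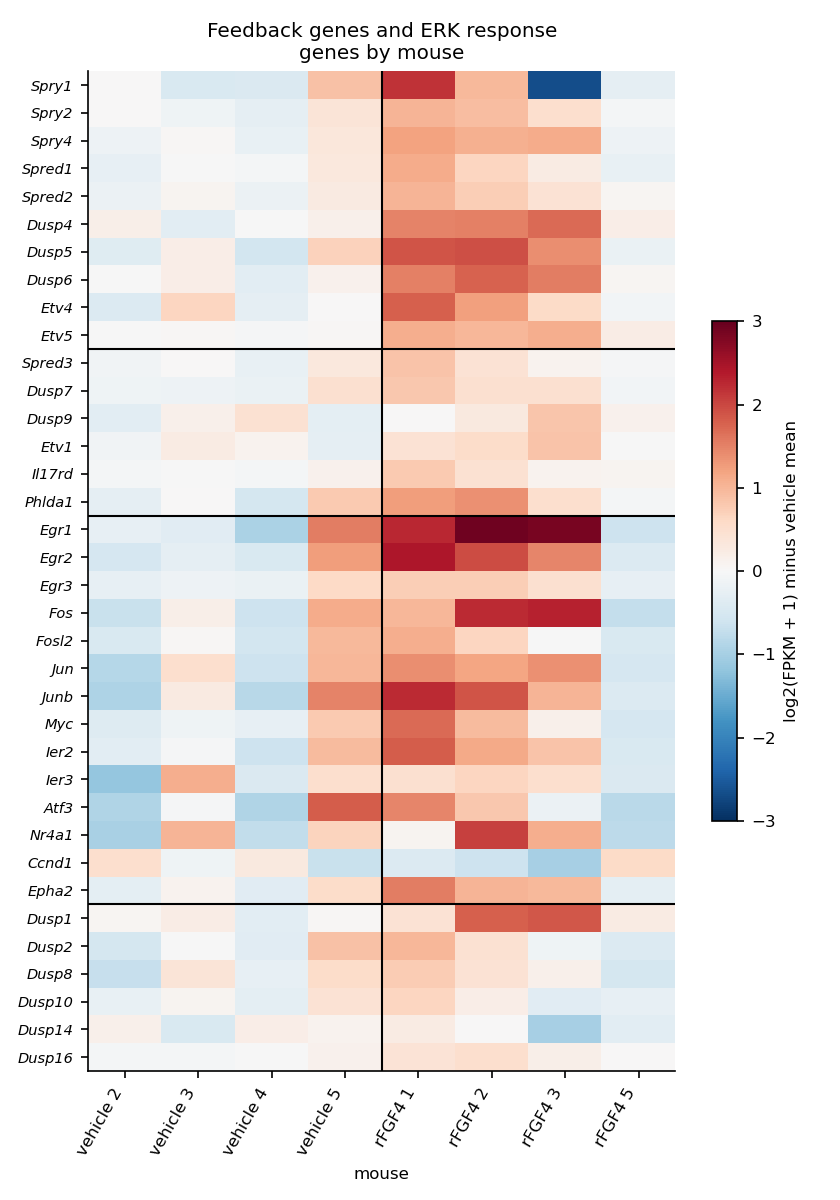
Log2(FPKM + 1) of single genes minus their vehicle mean (colour, from -3 to 3) in each mouse, vehicle-treated to the left of the vertical line and rFGF4-treated to the right. From top to bottom the blocks hold the 10 ERK feedback genes, 6 further feedback genes, 14 immediate early and ERK output genes and 6 other MAP kinase phosphatase genes. rFGF4 mouse 5 resembles vehicle mice 2 to 4 in most genes, and the immediate early genes are also high in vehicle mouse 5.

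Over all 8 mice the levels of the feedback genes, per exon length and as the mean of log2(FPKM + 1), ran from *Dusp6* through *Spred2*, *Spry2*, *Spry1*, *Etv5*, *Spred1*, *Dusp4*, *Dusp5* and *Spry4* down to *Etv4*. This order was not used to choose the genes, but it contains the group differences that were. It pools both groups and was not the same in each: the mean FPKM of *Spred1* and *Etv5* was 3.74 and 3.18 in vehicle-treated mice but 5.76 and 6.75 in rFGF4-treated mice, and that of *Spry4* and *Dusp5* was 1.28 and 1.23 in vehicle-treated mice but 3.21 and 4.79 in rFGF4-treated mice. *Dusp6* and *Spred2* kept their order but were further apart in rFGF4-treated mice (23.7 and 9.97 FPKM) than in vehicle-treated mice (8.755 and 6.245). *Dusp6* exceeded *Spred2* in 8 of 8 mice, by 0.75 ± 0.50 on the log2 scale (SD, n = 8; two-sided exact sign-flip permutation test, p = 0.00781, the smallest possible with 8 mice, adjusted p = 0.0703 over 9 neighbouring pairs). *Spred2* exceeded *Spry2* by 0.15 ± 0.15 (SD, n = 8; exact permutation p = 0.0313, adjusted p = 0.141), higher in 6 of 8 mice. No neighbouring pair differed at an adjusted p under 0.05 in this test, and 2 of 9 had an unadjusted p under 0.05. Below *Spry2*, the difference between neighbours was smaller than its SD over mice in each pair.

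The genes whose pattern was most like that of the feedback genes were found by the Pearson r of log2(FPKM + 1) over 8 mice with the mean profile of the 10, each centred and scaled. Among 13189 genes with a mean of at least 1 FPKM, *Acsl4*, which encodes an acyl-CoA synthetase for arachidonic acid, ranked first with r = 0.992. *Acsl4* was measured at 17.9, 13.7, 11.8 and 5.96 FPKM in rFGF4 mice 1, 2, 3 and 5 and 5.36, 6.07, 4.39 and 7.43 FPKM in the vehicle group. *Lin7c* (r = 0.987), *Vapa* (0.987), *Hsp90ab1* (0.981), which encodes a cytosolic HSP90, and *Pgd* (0.979), an enzyme of the pentose phosphate pathway, followed. The median r of all ranked genes was 0.491, and 4.11% were above 0.9, so likeness to this profile was common among expressed genes. The feedback genes themselves correlated with their mean profile at 0.987 for *Spred2*, 0.885 for *Dusp4* and 0.406 for *Spry1*, each value including the gene's own part.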

How the data were processed

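Poly(A) RNA of 8 mouse kidneys was sequenced as paired ends. The submitters' processing notes name HISAT2 2.0, Bowtie 0.12.2, StringTie 1.3.0 and the build mm8, without their roles. Per the paper's methods, the authors assembled mapped reads with StringTie, merged transcripts with gffcompare and calculated FPKM. In the deposited FPKM table, 0.0001 appears to stand for 0. The deposited columns of the authors' own comparison (fold change, its log2, p, q and calls) were not used. Of the identifiers, 99.5% (55141) were in GENCODE M21 on GRCm38, which gave gene positions, although the notes name mm8. The methods name another sequencing platform than the labels and the paper's reporting summary.

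Samples were grouped by genotype and treatment labels. Genes with FPKM of at least 0.5 in 4 libraries were compared as log2(FPKM + 1) with limma 3.58.1 (R 4.3.3, trend, no covariate, two-sided, Benjamini-Hochberg), since the count model of the study needs read counts. The procedure was tested on simulated data. P-values measure the spread between mice. The 10 genes, the lists and the tests were chosen with earlier results of these data known. Named genes were the 10 members, and from each list the genes past the threshold, those with groups apart and the 2 of highest mean, plus the 5 most alike; *Egr1*, *Fos* and *Fgfr1* were added after their values were seen. The result of 1 gene that this rule names is not reported here. Further marker lists were summed per library. Alternatives were a pseudocount of 0.1 FPKM, no filter, scaling, no trend, a fold change of at least 2, each mouse left out and a block for mouse number. Figures were drawn with matplotlib 3.10.9.

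The marker lists not described with the results were those of endothelium (24.6 to 36.5 FPKM in the rFGF4 and 29.8 to 44.9 in the vehicle group), thick ascending limb (920 to 1329 and 806 to 1156), distal convoluted tubule (29.8 to 184 and 95.3 to 241), collecting duct principal cells (133 to 270 and 160 to 251) and intercalated cells (37.0 to 58.3 and 39.6 to 92.6).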

Additional observations from a re-analysis of the deposited data

Results flagged for a closer look

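In groups of 4 mice, a highest or lowest value was noted where its gap to the nearest other value, divided by the range of the group, was above Dixon's critical value for 4 samples. Genes were taken as log2(FPKM + 1) and the summed FPKM without logarithm. Over 32 results in 2 groups each (64 groups) this held 10 times, where chance gives about 3.2. Among the feedback genes, rFGF4 mouse 5 lay apart below the other rFGF4-treated mice in *Spry4* (0.894), *Dusp4* (0.866), *Dusp6* (0.848) and *Etv5* (0.902). It lay apart in the same way in *Ier3* (0.842). rFGF4 mouse 3 lay below the others in *Fgfr2* (0.860). Vehicle mouse 5 lay above the other vehicle-treated mice in *Dusp7* (0.908) and *Mapk3* (0.902), and its summed FPKM lay below theirs (0.840). Vehicle mouse 3 lay below the others in *Dusp14* (0.835). The causes were not tested.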

How the results depend on the processing

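Of 120 alternative estimates of the log2 fold changes of the feedback genes, 113 stayed above 0. The 7 that turned negative were all of *Spry1*: -0.48 with a pseudocount of 0.1 FPKM, -0.0815 after scaling, -0.80 with the replicate block, -0.66 without rFGF4 mouse 1, -0.26 without rFGF4 mouse 2, -0.11 without vehicle mouse 3 and -0.09 without vehicle mouse 4. With each mouse left out, *Spry1* ranged from -0.66 to 0.96, the latter without rFGF4 mouse 3. The number of feedback genes past the study's threshold, 6, was 1 with the replicate block for mouse number (182 of all tested genes were higher there), 3 at a fold change of at least 2 and 3 to 9 with each mouse left out. In the fit with the block, rFGF4 mouse 1 and vehicle mouse 4 do not bear on the difference, since their numbers occur in 1 group only. The number with groups apart, 2, was 1 after scaling and 2 to 7 with each mouse left out, the 7 being without rFGF4 mouse 5. Over all tested genes, the number higher at the threshold, 165, was 249 with a pseudocount of 0.1 FPKM, 93 after scaling, 48 at a fold change of at least 2 and 123 to 413 with each mouse left out (413 without rFGF4 mouse 5, 325 without vehicle mouse 5), and the number lower, 66, was 6 and 50 to 152 for the last 2 of these. Scaling moved the share of higher calls from 71.4% to 53.4%. Genes with an adjusted p under 0.05 (limma) numbered 1 without the filter and 0 to 1 with each mouse left out. Neighbouring pairs in the order of levels that differed numbered 0 to 3 with each mouse left out, the 3 being without rFGF4 mouse 3. Mouse numbers 2, 3 and 5 occur in both groups but mark no stated pair, and same-numbered mice did not deviate together (r = -0.23, -0.16 and -0.39). The causes of these shifts were not tested. Without read counts, the counting error of low values such as those of *Etv4* cannot be given.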
